A study of Mus musculus with 36 samples.

Results

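The 10 genes described here encode the classical MHC molecules of the mouse and the machinery that supplies them with peptides. They are H2-K1, H2-D1 and B2m of the class I molecules, the transporter genes Tap1 and Tap2, the immunoproteasome genes Psmb8 and Psmb9, and Cd74, H2-Aa and H2-Ab1 of the class II pathway. They were chosen by name, with earlier results of these data known, and are 10 of the 50559 gene symbols in the count table. On the GRCm38 annotation B2m lies on chromosome 2, Cd74 on chromosome 18 and the other 8 on chromosome 17, which holds the mouse MHC. All 10 were among the 25382 genes that passed the filter on low counts and were tested.

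The data are 36 bulk RNA-seq libraries from the hippocampi of female C57BL/6 mice aged 6 months. APP/Tau mice (9 libraries) carry both transgenes, Tau mice (8 libraries) the PS19 transgene for mutant human tau, and APP mice (8 libraries) the J9 transgene for human APP with the Swedish and Indiana mutations. Control mice (11 libraries), which the protocols also call WT, carry neither. All 4 genotypes carry Pvalb-IRES-Cre and 1 RiboTag allele, so the control animals are Cre and RiboTag carriers too, and the transgenes are heterozygous. The libraries were made from the input lysate, with no selection of tagged ribosomes, so they hold RNA from every cell type of the tissue. All mice, naive and trained, were handled for 3 days. Trained mice swam in the Morris water maze on 5 days with 6 trials a day, were probed 24 hours after the final trial and gave tissue 2 hours later. After handling, naive mice stayed in the home cage. The trained groups hold 3 APP/Tau, 4 Tau, 3 APP and 5 Control libraries, and the naive groups 6 APP/Tau, 4 Tau, 5 APP and 6 Control libraries. Expression of tau in the PS19 line is driven by the mouse prion protein promoter and that of APP in the J9 line by the platelet-derived growth factor B promoter, so these are models of transgene overexpression mainly in neurons. The labels name no batch and leave unsaid whether each library is a separate mouse; p-values then measure only library-to-library spread, part of which may be technical.

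MHC class I molecules, a heavy chain paired with beta-2-microglobulin, display peptides from inside the cell, which the proteasome cuts and the TAP transporter carries into the endoplasmic reticulum. MHC class II molecules, held in readiness by the invariant chain Cd74, display peptides from engulfed material. Interferon gamma raises both sets of genes. In healthy brain both pathways run at low levels, microglia and macrophages at the borders of the brain are the main cells with class II, and activated microglia raise both classes.

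Total counts per library were 69.2 to 124.8 M (median 85.4 M), and values below are CPM, a gene's count as a share of each M counts, on library sizes scaled by the trimmed mean of M values (TMM). Hippocampal markers were present in every library, with Prox1 of dentate granule cells at 60.2 to 146 CPM and Slc17a7 of excitatory neurons at 837 to 1380 CPM. Prnp, part of whose sequence the PS19 transgene carries, was at 1420 to 2140 CPM in 16 of the 17 libraries labelled Tau or APP/Tau and at 728 to 879 CPM in the 19 other libraries. The exception was the library labelled Tau trained replicate 4, at 846 CPM, which goes against its label. Results on Tau carriers are therefore also given without it. None of the 68 pairs of libraries in the same group held identical values.

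Upstream sequences of H2-K1, H2-D1, B2m and H2-Aa are printed because they hold the letters of elements known to drive MHC genes. They are the 250 bases before the first RefSeq start site on GRCm38.p6, read 5′ to 3′ on the gene's strand: chr17:34000348-34000597 on the minus strand for H2-K1, chr17:35262844-35263093 on the plus strand for H2-D1, chr2:122147437-122147686 on the plus strand for B2m and chr17:34287824-34288073 on the minus strand for H2-Aa. Capitals mark every match, on either strand, to TGACG (core of the X2 box), ATTGG (the Y box, CCAAT on the other strand) and AANNGAAA (core of an interferon response element).
H2-K1: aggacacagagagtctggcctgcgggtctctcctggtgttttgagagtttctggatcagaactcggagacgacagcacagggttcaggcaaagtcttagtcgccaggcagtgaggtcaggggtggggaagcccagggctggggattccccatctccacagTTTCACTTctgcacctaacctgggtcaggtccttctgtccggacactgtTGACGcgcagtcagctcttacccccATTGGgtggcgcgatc
H2-D1: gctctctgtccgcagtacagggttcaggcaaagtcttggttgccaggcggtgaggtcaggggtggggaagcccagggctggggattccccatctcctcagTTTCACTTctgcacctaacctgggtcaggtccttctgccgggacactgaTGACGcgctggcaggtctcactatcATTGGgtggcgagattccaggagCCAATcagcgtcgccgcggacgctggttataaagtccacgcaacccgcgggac
B2m: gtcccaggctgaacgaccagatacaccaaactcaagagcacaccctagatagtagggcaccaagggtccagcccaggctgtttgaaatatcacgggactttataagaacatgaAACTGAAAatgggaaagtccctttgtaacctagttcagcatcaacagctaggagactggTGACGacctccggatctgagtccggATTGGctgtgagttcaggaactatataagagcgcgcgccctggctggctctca
H2-Aa: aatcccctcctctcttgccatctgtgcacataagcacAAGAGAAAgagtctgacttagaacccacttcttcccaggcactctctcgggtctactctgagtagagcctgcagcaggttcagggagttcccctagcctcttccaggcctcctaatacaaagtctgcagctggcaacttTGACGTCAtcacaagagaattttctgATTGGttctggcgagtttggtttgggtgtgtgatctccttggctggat

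In all 4 sequences TGACG was followed by ATTGG, with 20 bases between them in H2-K1, H2-D1 and B2m and 21 in H2-Aa, where matches to TGACG on both strands overlap. A pair with 18 to 22 bases between was present in 4 of the 7 members with a RefSeq promoter entry and in 71 of all 27025 promoters (0.263%). This spacing was searched after the sequences had been seen. Alone, TGACG was in 17.9% of promoters, ATTGG in 34.5% and AANNGAAA in 21.6%. AANNGAAA was in 4 of the 7 members with an entry. These are the 4 printed, which were chosen for holding such elements, while Tap1, Psmb8 and Psmb9 had no match to it. These are matches of letters, not measured binding.

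Before any group is compared, 5 libraries stood apart from the rest in these genes: Tau naive replicate 2, APP/Tau naive replicates 1 and 6, Tau trained replicate 3 and APP/Tau trained replicate 1. All 5 are labelled as Tau carriers, and they are found in all 4 groups that are. Their Cd74 level was 29.5 to 50.2 CPM, while each of the other 31 libraries was at or below 9.10 CPM. The 5 were picked by this gap, so their high Cd74 values and ratios of Cd74 to other genes are largely fixed by the choice. The same holds for sums of class II genes that include Cd74. For 8 of the 10 members at least 5 Tau-labelled libraries were above every one of the 19 libraries not labelled Tau, a pattern seen in 3.82% of all genes tested. The exceptions were Tap2, with 4 such libraries (6.68% of all genes had at least 4), and Psmb9, with 3. The other 12 Tau-labelled libraries lay within the range of the libraries not labelled Tau for 9 of the members. For H2-D1, 11 of the 12 did.

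**Figure D1:**
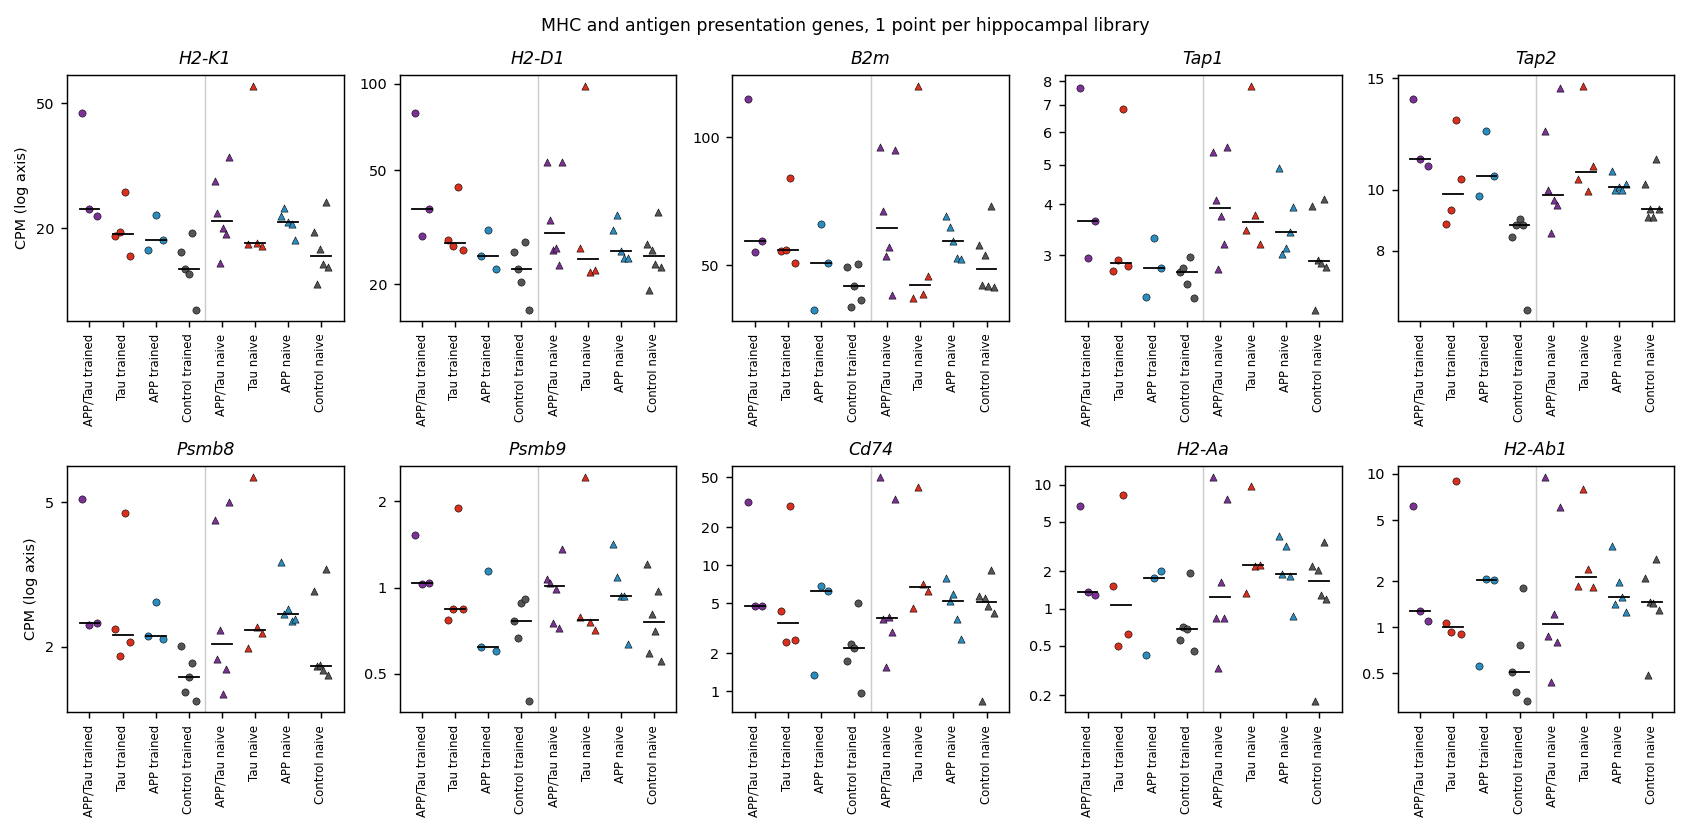
CPM of each of the 10 genes in all 36 libraries on a log axis, 1 panel per gene, with 1 point per library (circles trained, triangles naive) and a line at each group median. In the Cd74 panel the highest APP/Tau trained, Tau trained and Tau naive library and the highest 2 APP/Tau naive libraries lie at 29.5 to 50.2 CPM, above the 9.10 CPM that no other library exceeds.

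Among the class I genes, H2-K1 encodes a classical heavy chain that presents peptides to CD8 T cells. It measured 46.6, 23 and 21.8 CPM in the APP/Tau trained libraries, against 16.8, 14.8, 14.3, 19.3 and 11.0 CPM in the Control trained libraries. The Tau trained libraries had 18.9, 19.5, 26.1 and 16.3 CPM and the APP trained libraries 17, 22.1 and 18.4 CPM. Every APP/Tau trained library was thus above every Control trained library, while the Tau and APP trained libraries overlapped the controls. Naive APP/Tau libraries ran from 15.5 to 33.6 CPM (median 21.1), naive Tau libraries had 17.8, 56.9, 18 and 17.5 CPM, naive APP libraries 21.9, 23.2, 20.9, 20.6 and 18.3 CPM, and naive Control libraries 13.3 to 24.2 CPM (median 16.3). All naive genotypes overlapped the naive controls, and the single Tau naive library at 56.9 CPM was the highest of the 36.

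H2-D1, the other classical heavy chain of this strain, followed the same libraries. It measured 79.3, 29.5 and 36.5 CPM in APP/Tau trained libraries and 28.5, 27.2, 43.8 and 26.4 CPM in Tau trained libraries, against 25.8, 22.5, 20.3, 28.1 and 16.3 CPM in Control trained libraries. APP/Tau trained and Control trained libraries did not overlap, and Tau trained libraries did. In the naive groups its ranges were 23.3 to 53.4 CPM in APP/Tau, 22 to 98.5 CPM in Tau, 24.6 to 34.8 CPM in APP and 19.1 to 35.7 CPM in Control libraries. The ratio of H2-D1 to H2-K1 was 1.59 to 1.89 in the 5 libraries set apart and 1.19 to 1.53 in the 19 libraries not labelled Tau. Other Tau-labelled libraries were as high, with 1.68 in APP/Tau trained replicate 3, 1.69 in APP/Tau naive replicate 3 and, for the library labelled Tau trained replicate 4, 1.62. About 4.64% of the 100-base windows of H2-D1 transcripts also occur in other genes, against 0% for H2-K1, so part of its reads could have been assigned elsewhere.

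B2m, the light chain shared by all class I molecules, had the highest level of the 10 per length. In Control naive libraries it averaged 60.4 ± 11.2 CPM per kb of exon, against 12.3 ± 2.69 for H2-D1, 10.5 ± 2.38 for H2-K1, 3.53 ± 1.89 for Cd74 and 0.598 ± 0.184 for Psmb9, the lowest (SD, n = 6, exon lengths from GENCODE on GRCm38). It measured 123, 53.7 and 57.0 CPM in APP/Tau trained libraries and 54.1, 54.4, 80.1 and 50.5 CPM in Tau trained libraries, against 49.4, 39.9, 44.6, 50.2 and 41.4 CPM in Control trained libraries. APP/Tau and Tau trained libraries lay wholly above the trained controls, the Tau group by a margin of 50.5 against 50.2 CPM. Naive libraries gave 42.5 to 95 CPM in APP/Tau, 41.9 to 132 CPM in Tau, 51.6 to 65.2 CPM in APP and 44.4 to 69 CPM in Control.

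Tap1 and Tap2 form the peptide transporter. Tap1 was at 7.68, 2.96 and 3.64 CPM in APP/Tau trained libraries and 2.74, 2.92, 6.86 and 2.83 CPM in Tau trained libraries, against 2.73, 2.79, 2.56, 2.98 and 2.36 CPM in Control trained libraries. Except in APP/Tau trained replicate 1, APP/Tau trained replicate 3 and Tau trained replicate 3, these values lay at or within the control range. In the naive groups Tap1 was 2.78 to 5.51 CPM in APP/Tau, 3.19 to 7.80 CPM in Tau, 3.02 to 4.92 CPM in APP and 2.21 to 4.13 CPM in Control libraries. Tap2 had the smallest ratio of its highest to its lowest library among the 10. It measured 13.9, 11.2 and 10.9 CPM in APP/Tau trained libraries, 8.83, 9.27, 12.9 and 10.4 CPM in Tau trained libraries and 9.78, 12.4 and 10.5 CPM in APP trained libraries, against 8.42, 8.79, 8.99, 8.80 and 6.46 CPM in Control trained libraries. For Tap2 every APP/Tau trained and every APP trained library was above every Control trained library, and the Tau trained libraries overlapped the controls. About 5.35% of its transcript windows occur in other genes.

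Psmb8 and Psmb9 encode catalytic subunits that replace constitutive ones to form the immunoproteasome, whose cuts suit class I binding. Psmb8 measured 5.10, 2.29 and 2.33 CPM in APP/Tau trained libraries, 2.24, 1.89, 4.67 and 2.06 CPM in Tau trained libraries and 2.14, 2.65 and 2.10 CPM in APP trained libraries, against 2.01, 1.5, 1.65, 1.81 and 1.42 CPM in Control trained libraries. APP/Tau and APP trained libraries did not overlap the trained controls. Naive Psmb8 levels were 1.48 to 4.99 CPM in APP/Tau, 1.99 to 5.86 CPM in Tau, 2.36 to 3.43 CPM in APP and 1.67 to 3.27 CPM in Control libraries. The ratio of Psmb8 to Psmb5, the constitutive subunit it replaces, was 0.0683 to 0.144 in the 5 libraries set apart and 0.0212 to 0.0580 in libraries not labelled Tau. Psmb9, with 39 to 213 counts per library, had 1.53, 1.03 and 1.04 CPM in APP/Tau trained libraries against 0.762, 0.666, 0.885, 0.913 and 0.402 CPM in Control trained libraries, with no overlap. Tap1 and Psmb9 are neighbours whose promoter windows share 275 of 300 bases, and 9.02% of Psmb9 windows and 3.96% of Tap1 windows occur in the other gene or elsewhere, so their counts are not fully separate.

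The class II genes differed most between libraries. Cd74, the invariant chain, measured 31.5, 4.77 and 4.70 CPM in APP/Tau trained libraries, 4.36, 2.44, 29.5 and 2.54 CPM in Tau trained libraries and 1.33, 6.85 and 6.24 CPM in APP trained libraries, against 1.72, 2.35, 2.19, 4.99 and 0.958 CPM in Control trained libraries. One library in each Tau-carrying group was far above all controls and the rest overlapped them. Naive APP/Tau libraries held 50.2 CPM in replicate 1, 33.5 CPM in replicate 6 and 1.54 to 3.91 CPM in the others, the Tau naive libraries 4.57, 41.9, 7.09 and 6.27 CPM, the APP naive libraries 7.94, 5.22, 5.90, 3.73 and 2.61 CPM, and the Control naive libraries 0.835 to 9.10 CPM (median 5.10). The naive controls alone thus spread widely in Cd74.

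H2-Aa and H2-Ab1 encode the alpha and beta chains of the I-A molecule. H2-Aa was at 6.73, 1.36 and 1.29 CPM in APP/Tau trained libraries and 1.51, 0.499, 8.27 and 0.619 CPM in Tau trained libraries, against 0.556, 0.704, 0.681, 1.95 and 0.453 CPM in Control trained libraries. H2-Ab1 was at 6.2, 1.27 and 1.09 CPM in APP/Tau trained libraries and 1.07, 0.930, 9.02 and 0.899 CPM in Tau trained libraries, against 0.508, 0.377, 0.763, 1.79 and 0.330 CPM in Control trained libraries. Both chains were high in the same 2 trained libraries as Cd74 and overlapped the controls elsewhere. In the naive groups H2-Aa reached 11.5 and 7.66 CPM in APP/Tau replicates 1 and 6 and 9.81 CPM in Tau replicate 2, against 0.180 to 3.46 CPM in Control libraries. H2-Ab1 reached 9.55, 6.12 and 7.94 CPM in the same 3 libraries, against 0.488 to 2.79 CPM in Control libraries. The ratio of H2-Aa to H2-Ab1 was 0.916 to 1.25 in the 5 libraries set apart, inside the 0.368 to 1.87 of libraries not labelled Tau. H2-Ea, the alpha chain of the other class II molecule, had 0 counts in all 36 libraries, which allows at most 0.0434 CPM in the shallowest of them; C57BL/6 mice are known to lack its expression.

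The 5 libraries were not high in both classes to the same degree. Summed over H2-Aa, H2-Ab1 and Cd74, class II reached 59.6 CPM in Tau naive replicate 2, 71.3 CPM in APP/Tau naive replicate 1, 47.2 CPM in APP/Tau naive replicate 6, 46.8 CPM in Tau trained replicate 3 and 44.4 CPM in APP/Tau trained replicate 1, against 1.5 to 15.4 CPM in libraries not labelled Tau. Summed over H2-K1, H2-D1 and B2m, class I was 287, 176, 180, 150 and 249 CPM in the same libraries and order, against 68.6 to 129 CPM. The library with the most class II, APP/Tau naive replicate 1, was therefore among the lower ones for class I. The ratio of Cd74 to H2-K1 was 1.78 in that library, 1.13 in Tau trained replicate 3, 0.995 in APP/Tau naive replicate 6, 0.736 in Tau naive replicate 2 and 0.676 in APP/Tau trained replicate 1, against 0.0630 to 0.375 in libraries not labelled Tau. As the 5 were picked by Cd74, their gaps in the class II sum and in this ratio are largely fixed by the choice.

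**Figure D2:**
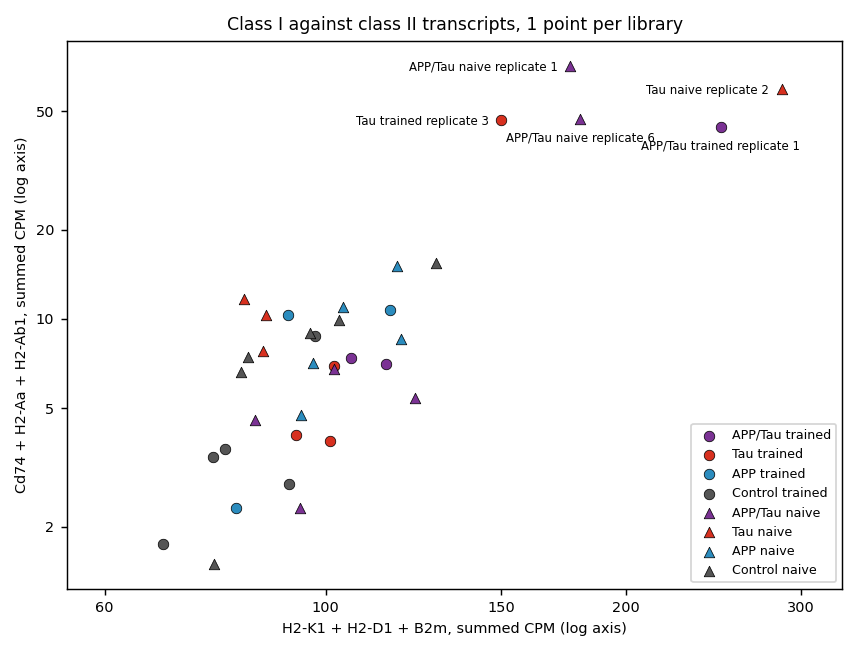
Summed CPM of H2-K1, H2-D1 and B2m on the horizontal axis against summed CPM of Cd74, H2-Aa and H2-Ab1 on the vertical axis, both logarithmic, 1 point per library, coloured by genotype (circles trained, triangles naive). The 5 libraries named in the text lie at 44.4 to 71.3 CPM of class II, above the 1.5 to 15.4 CPM of the 19 libraries not labelled Tau. They were picked by Cd74, which is part of that sum, so this gap is largely fixed by the choice.

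Averaged over the 4 groups that carry the Tau transgene and the 4 that do not, all 10 members were higher in Tau carriers, and none passed the test. Cd74 averaged 13.6 CPM in carriers and 4.33 CPM in non-carriers, a log2 difference of 1.69 ± 0.49 (SE), with an adjusted p of 0.101 (edgeR's quasi-likelihood test with Benjamini-Hochberg adjustment over all 25382 genes). H2-Aa differed by 1.17 ± 0.47 and H2-Ab1 by 1.18 ± 0.44 on the log2 scale, with adjusted p of 0.258 and 0.208. H2-D1 averaged 39.6 CPM in carriers and 25.7 CPM in non-carriers, 0.61 ± 0.18 on the log2 scale with an adjusted p of 0.105. The other class I and peptide supply genes differed by 0.47 ± 0.15 for H2-K1, 0.40 ± 0.15 for B2m, 0.49 ± 0.15 for Tap1, 0.19 ± 0.07 for Tap2, 0.45 ± 0.18 for Psmb8 and 0.45 ± 0.18 for Psmb9, with adjusted p between 0.112 and 0.264.

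By edgeR 0 of the 10 members passed an adjusted p of 0.05 for Tau carriers, where 0.835% of all genes did. At an unadjusted p under 0.05, 10 of 10 were higher, against 7.29% of all genes. DESeq2 called 3 of the 10, namely H2-D1 (adjusted p = 0.038), Tap1 (0.0337) and Cd74 (0.0155), where it called 2.47% of all genes. By limma-voom 0 of 10 passed, and DESeq2 and limma-voom called no member in any other comparison. The median log2 difference of the 10 was 0.48, beside -0.007 over all genes tested. Without the library labelled Tau trained replicate 4, edgeR's log2 differences of the 10 members ran from 0.20 for Tap2 to 1.76 for Cd74. Their adjusted p ran from 0.0885 for Cd74 and 0.0985 for Tap1 to 0.259 for Psmb8, with 0.108 for H2-D1. With the 5 libraries set apart left out together, an alternative added after seeing the data that chooses them by Cd74 and so removes high values by construction, 6 of 10 members were above 0, the log2 differences ran from -0.30 to 0.11 with a median of 0.03, and adjusted p was 0.748 or higher.

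In trained mice, APP/Tau against Control gave the largest median difference of the genotype comparisons, 0.98 on the log2 scale, and again no member passed edgeR's test. The log2 difference was 1.00 ± 0.31 for H2-K1 (adjusted p = 0.244), 1.10 ± 0.38 for H2-D1 (0.298), 0.53 ± 0.15 for Tap2 (0.184) and 2.50 ± 1.07 for Cd74 (0.425). Of the 10 members 0 were called, against 0.0552% of all genes, and 7 had an unadjusted p under 0.05 and were higher, against 6.82%. All APP/Tau trained libraries were above all Control trained libraries for 6 of 10 members, H2-K1, H2-D1, B2m, Tap2, Psmb8 and Psmb9, against 3.99% of all genes. The class II genes and Tap1 overlapped. Summed markers of other cells were also without overlap in this comparison, at 4990 to 5480 CPM in APP/Tau against 3070 to 3930 CPM in Control for oligodendrocytes, 1970 to 3210 against 1740 to 1950 CPM for astrocytes, 140 to 164 against 52.5 to 138 CPM for endothelium and 32.6 to 41.7 against 27 to 31.8 CPM for border macrophages and dendritic cells. The astrocyte genes differed unevenly on the log2 scale, with Gfap at 1.28 and the others at 0.01 to 0.29. Those of homeostatic microglia overlapped, at 375 to 604 CPM in APP/Tau and 317 to 451 CPM in Control. Summed microglial activation genes did not overlap, at 2470 to 3750 CPM in APP/Tau against 2080 to 2460 CPM in Control. Nor did summed interferon-stimulated genes, at 313 to 523 CPM against 234 to 282 CPM. The part of these markers and genes in the result was not tested. Without APP/Tau trained replicate 1 all 10 differences remained above 0, at 0.30 to 0.97 with a median of 0.54, and adjusted p was 0.347 or higher. The APP/Tau trained libraries left in that setting were those rich in choroid plexus markers, at 2220 and 2400 CPM.

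Tau trained against Control trained gave log2 differences of 0.32 to 2.00, all above 0, with adjusted p of 0.255 to 0.553. No member was called where 0.303% of all genes were, and 2 had an unadjusted p under 0.05, against 6.64% of all genes that were higher at that level. B2m alone did not overlap between the groups, against 2.95% of genes. Without Tau trained replicate 3 the differences were 0.08 to 0.39. Without the library labelled Tau trained replicate 4 they were 0.32 for Tap2 to 2.30 for Cd74, with edgeR's adjusted p of 0.295 to 0.541.

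Among naive mice, APP/Tau against Control gave 0.15 to 1.65 on the log2 scale (adjusted p of 0.666 to 0.843) and Tau against Control gave 0.24 to 1.56 (adjusted p of 0.49 to 0.706). No member was called in either, where 0.067% and 0.0276% of all genes were. At an unadjusted p under 0.05, 1 member was higher in APP/Tau, against 3.82% of all genes, and 2 in Tau, against 4.87%. No member was higher in every library in these or in the APP naive comparison, against 0.169% of genes in APP/Tau, 0.693% in Tau and 0.126% in APP. Without Tau naive replicate 2, 6 of 10 members were above 0 in Tau and the range was -0.24 to 0.32. For APP/Tau the range was 0.11 to 0.86 without replicate 1 and 0.04 to 1.27 without replicate 6.

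**Figure D3:**
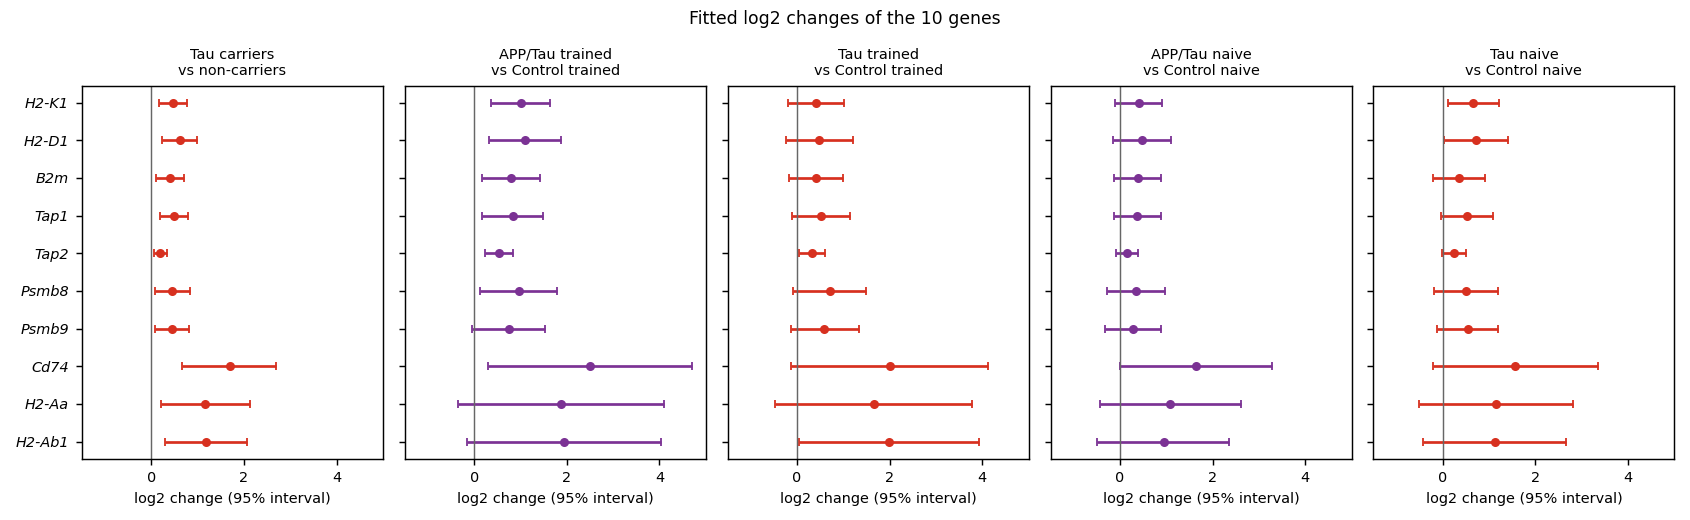
Log2 differences of the 10 genes with 95% confidence intervals from edgeR's quasi-likelihood fit, in the Tau carrier and the Tau-carrying genotype comparisons named above each panel, with a vertical line at 0. The Tau carrier estimates lie between 0.19 and 1.69 with every interval above 0, and the intervals of the class II genes are the widest. The intervals are not adjusted for the number of genes tested, and none of the 10 genes passed edgeR's adjusted test in these comparisons.

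In APP mice the highest estimates were lower than in Tau or APP/Tau mice, a difference that was not tested. APP against Control gave log2 differences of 0.07 to 1.05 in trained mice and -0.01 to 0.38 in naive mice, with 0 members called, against 0.0276% and 0.0355% of all genes. In trained mice Tap2 (0.39, unadjusted p = 0.0108, adjusted p = 0.797) was 1 of 10 members at an unadjusted p under 0.05, against 3.64% of all genes that were higher. In naive mice there were 0, against 1.62%. Tap2 and Psmb8 did not overlap between APP trained and Control trained libraries, 2 of 10 members against 1.24% of all genes. APP carriers against non-carriers differed by 0.06 to 0.39 on the log2 scale, with 0 members called against 0.0985% of all genes. By edgeR's quasi-likelihood test Tap2 was the 1 member at an unadjusted p under 0.05, with an adjusted p of 0.47, against 5.41% of all genes that were higher. APP/Tau against Tau libraries gave -0.11 to 0.29 (0 called, against 0.461%), and the departure of APP/Tau from the sum of both single effects was -0.74 to 0.05 (0 called, against 0.0512%), with adjusted p of 0.642 to 0.985. In these comparisons 0 members had an unadjusted p under 0.05, where 7.71% of all genes were higher in APP/Tau than in Tau at that level and 7.4% had a positive departure.

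No member passed the test for maze training, by edgeR, DESeq2 or limma-voom. In Control mice 0 of 10 log2 differences, trained over naive, were above 0 and the range was -1.11 to -0.18. In Tau mice 0 were above 0 (-0.63 to -0.12), in APP mice 1 was, and in APP/Tau mice 7 were. No gene of the 25382 was called by edgeR in any training comparison (0%). At an unadjusted p under 0.05 by edgeR there were 0 members in either direction. Of the 25382 genes, 1486 were at that level in either direction in Control, 1329 in APP, 3707 in Tau and 780 in APP/Tau mice. Genes that were higher at that level made up 3.05% in Control, 3.42% in APP, 6.85% in Tau and 1.72% in APP/Tau mice. Tap2 was the 1 member without overlap. It was lower in Control trained libraries, at 6.46 to 8.99 CPM, than in Control naive libraries, at 9.05 to 11.2 CPM, where 0.197% of all genes were lower without overlap. In APP, Tau and APP/Tau mice 0 members were lower without overlap, against 1.2%, 5.07% and 0.973% of all genes. Over all genotypes the training differences were -0.62 to -0.03 with edgeR's adjusted p of 0.786 or higher. At an unadjusted p under 0.05 there were 0 members, against 2018 of the 25382 genes in either direction (3.82% of all genes were higher). The Tau carrier difference was larger in trained than in naive mice by 0.07 to 0.52 on the log2 scale, with adjusted p of 0.789 or higher and 0 members at an unadjusted p under 0.05 (3.42% of all genes were higher).

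Other genes of the pathways were read from lists of named genes. For Tau carriers, 0 of 15 tested genes among the other class I heavy chains passed edgeR's test, with a median log2 difference of 0.17 and 14 above 0, where 47% of all genes were above 0. Those with the smallest p were H2-Q6 at 1.55 (adjusted p = 0.106), H2-Q4 at 0.64 (0.169) and H2-M3 at 0.36 (0.219), and the Q genes are near-identical copies that can share reads. H2-T23, which encodes the nonclassical Qa-1 molecule, was at 0.36 (0.273). Of the other class II genes 0 of 11 passed, with a median of 0.50 and 10 above 0. Ctss, the protease that trims the invariant chain in microglia, was at 0.65 (adjusted p = 0.104), H2-DMb1, part of the class II peptide editor, at 0.68 (0.114), and H2-Oa, part of the inhibitor of that editor, at 0.90 (0.135). H2-Eb1, the beta chain of the other class II molecule, measured 4.77 to 7.77 CPM in the 5 libraries set apart, against at most 3.98 CPM in those not labelled Tau.

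The general parts of the machinery differed little. The list of 10 peptide loading and trimming genes had a median log2 difference of 0.02. It also holds Psmb10 and the proteasome activator genes Psme1, Psme2 and Psme3. The 3 constitutive catalytic subunits replaced in the immunoproteasome had a median of -0.05, with 0 called in either list. Psmb10, the remaining catalytic subunit of the immunoproteasome, was at 0 (edgeR's adjusted p = 0.986), while Psmb8 and Psmb9 were each at 0.45. Of the loading and trimming genes, the peptidase gene Erap1 was at 0.18 (adjusted p = 0.124), Tapbp, which bridges TAP and class I, at 0.12 (0.401) and the chaperone gene Calr at -0.12 (0.41). The sum of the loading and trimming genes was 1060 to 1190 CPM in the 5 libraries, within the 985 to 1330 CPM of those not labelled Tau. Among 17 tested regulators, 0 were called and the median was 0.01. Nlrc5, the transactivator of class I genes, was at 0.93 on the log2 scale (adjusted p = 0.153), and Irf8, a transcription factor of microglia and macrophages, at 0.77 (0.0745). Ciita, the transactivator of class II genes, was at -0.10 (0.223) and measured 13.2 to 16 CPM in the 5 libraries, against 13.3 to 18.7 CPM in those not labelled Tau. Ifng, the gene of interferon gamma, did not exceed 0.0712 CPM in any library.

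Interferon-stimulated genes rose in part. In Tau carriers 6 of 33 passed edgeR's test, all higher, where 0.835% of all genes passed in either direction, and the list median was 0.60: Cxcl10, a chemokine that draws T cells, at 2.39 (adjusted p = 0.03), Ifi44 at 1.76 (0.0338), Oasl2 at 1.40 (0.0396), Ifi27l2a at 0.57 (0.0333), Xaf1 at 0.47 (0.0381) and Ifit2 at 0.26 (0.031). Of the microglial activation genes 4 of 23 rose, with a list median of 0.53. Clec7a, a receptor of activated microglia, was at 3.96 (adjusted p = 0.0281), Cst7 at 4.08 (0.0158), Itgax at 3.56 (0.0285) and the chemokine Ccl4 at 2.50 (0.0172). Clec7a measured 6.55 to 14.3 CPM in the 5 libraries set apart and at most 0.623 CPM in libraries not labelled Tau. Without the library labelled Tau trained replicate 4 the counts were 9 of 33 and 5 of 23, and with the 5 libraries set apart left out 0 of 33 and 0 of 23, with medians of 0.17 and 0.08 (both added after seeing the data). Over all genes edgeR called 212 with all libraries and 65 to 391 when single libraries were left out. Far fewer genes were called without the 5, so the counts of 0 do not set these lists apart from other genes. In APP/Tau trained against Control trained libraries no gene of any list was called, although all 33 interferon-stimulated genes were above 0, with a median of 1.36, where 48% of all genes were above 0 with a median of -0.008.

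Markers of microglia were high in the same libraries. The summed level of the 12 homeostatic microglia genes was 476 to 635 CPM in the 5 libraries set apart and 317 to 451 CPM in libraries not labelled Tau, and 1 of the 12, Sall1, rose in Tau carriers (log2 difference 0.23, adjusted p = 0.0082). In bulk tissue, more cells of a type and more RNA per cell cannot be told apart. The ratio of Cd74 to Csf1r, the growth factor receptor of microglia, was 0.227 to 0.365 in the 5 libraries. In libraries not labelled Tau it was 0.0118 to 0.109. As the 5 were picked by Cd74, this difference is largely fixed by the choice. Oligodendrocyte genes were high in Tau carriers more widely. Of these 6 of 6 rose, by 0.34 to 0.39, and their sum was 4630 to 5350 CPM in the 5 libraries and 3140 to 5570 CPM (median 5000) in all 17 Tau-labelled libraries, against 2760 to 4940 CPM in those not labelled Tau. Without the library labelled Tau trained replicate 4 again 6 of 6 rose, and with the 5 libraries left out 0 of 6, with a list median of 0.34 beside 0.36 over all libraries, while Sall1 rose in the first setting and not in the second. Few genes of any kind were called in the second setting. Astrocyte genes summed to 2330 to 3670 CPM in the 5 libraries, against 1580 to 2950 CPM in those not labelled Tau. For Tau carriers Gfap differed by 0.61 and the other astrocyte genes by 0.03 to 0.22 on the log2 scale, with none called. The part of these cell markers in the MHC result was not tested.

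For the cell types and tissues named next, not all of which can hold class II, the sums of the 5 libraries overlapped those of the libraries not labelled Tau. Genes of border macrophages and dendritic cells summed to 24.1 to 41.7 CPM in the 5 libraries, against 25.9 to 36.2 CPM in those not labelled Tau. B cell genes summed to 10.3 to 17.9 CPM, against 7.83 to 20.8 CPM, and T and natural killer cell genes to 2.35 to 5.87 CPM, against 2.15 to 5.17 CPM. For Tau carriers 0 of 9 tested T and natural killer cell genes passed edgeR's test, with a median log2 difference of 0.50 and 5 above 0. The smallest p were those of Cd3e at 1.15 (adjusted p = 0.208), Nkg7 at 0.98 (0.383) and Cd3g at 1.60 (0.414). Cd3d had 0 counts in 18 libraries and Gzmb in 19, and Cd8a was at 0.719 CPM in Tau naive replicate 2 and 0.448 CPM in APP/Tau naive replicate 6, against at most 0.109 CPM in libraries not labelled Tau. Choroid plexus genes summed to 100 to 3100 CPM, against 54.9 to 4840 CPM, endothelial genes to 113 to 170 CPM, against 52.5 to 185 CPM, and blood genes to 69.5 to 114 CPM, against 42.2 to 196 CPM.

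**Figure D4:**
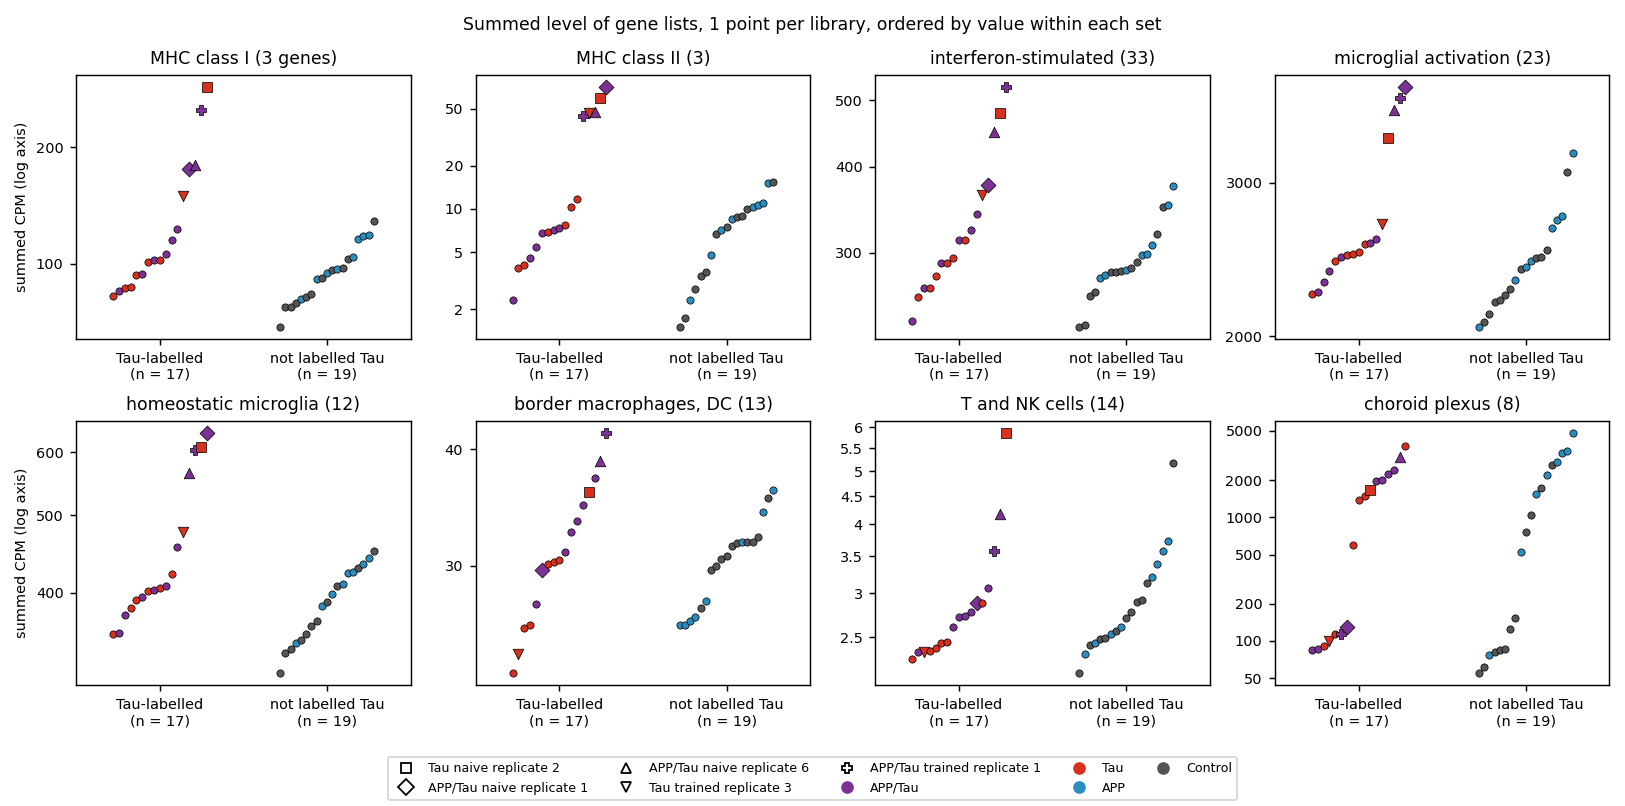
Summed CPM of 8 gene lists on log axes, 1 panel per list, with 1 point per library, the 17 Tau-labelled libraries left of the 19 not labelled Tau and each set ordered by value. The 5 libraries with a marker of their own lie above all libraries not labelled Tau for MHC class II, at 44.4 to 71.3 against 1.5 to 15.4 CPM, and among them for choroid plexus, at 100 to 3100 against 54.9 to 4840 CPM. The 5 were picked by Cd74, which is part of the class II sum, so the class II gap is largely fixed by the choice.

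The genes whose levels followed the members most closely were ranked by Pearson's r of log2 CPM centred on each group's mean over the 36 libraries, among 13988 genes. These correlations are descriptions across libraries that share the 5 set apart. For H2-K1 the closest were H2-D1 (0.96), B2m (0.94), H2-T23 (0.91), the lysosomal protease gene Ctsh (0.90) and H2-Q4 (0.90). Over the 31 other libraries the same pairs gave 0.91, 0.84, 0.83, 0.78 and 0.78. For Cd74 the closest were H2-Aa (0.98), H2-Ab1 (0.97), H2-Eb1 (0.95), Slc11a1 (0.90) and Tgfbr2 (0.89), and 0.97, 0.94, 0.91, 0.77 and 0.83 over the 31. H2-K1 and Cd74 themselves were at 0.83 over all 36 libraries and 0.78 over the 31, the highest over the 31 of the pairs between H2-K1, H2-D1 or B2m and a class II member. The lowest of these pairs was H2-D1 with H2-Aa, at 0.74 over the 36 and 0.60 over the 31. Those closest to Tap1 were H2-T23 (0.91) and the interferon-induced genes Irgm1 (0.88), Iigp1 (0.87), Oasl2 (0.87) and Gbp2 (0.87), and to Psmb8 they were Irgm1 (0.91), Hcls1 (0.90), B2m (0.89), Cd68 (0.89) and Tyrobp (0.89).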

How the data were processed

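The deposited table holds raw read counts per gene symbol for 36 libraries of the hippocampal input fraction, as the authors counted them. Per the labels' protocols, libraries were poly(A)-selected and sequenced as pairs. Per the submitters' processing notes, Trimmomatic 0.39 and the mm39 genome were used. The counter, its annotation and its use of strand were not named in what was used, so overlapping and antisense genes cannot be told apart. Groups came from the sample labels.

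Counts were tested with edgeR 4.0.16 in R 4.3.3 (quasi-likelihood fit, robust, TMM scaling). Genes were kept by filterByExpr at its settings of a minimum count of 10 and a minimum total of 15, which left 25382 genes. The model had 8 group means and 28 residual degrees of freedom, and 16 contrasts were adjusted over all genes tested by Benjamini-Hochberg, with a threshold of 0.05. Contrasts against Control share their control libraries. The script was tested on simulated counts. DESeq2 1.42.0, limma 3.58.1 with voom quality weights, other scaling, no filter, a replicate block and omission of each library were the alternatives. Intervals are 95%. Likeness was ranked after a log2 transform of CPM (prior count 2) among genes of mean log2 CPM of at least 0, and the 5 genes with the highest r were named per member. Named genes were the 10 members and, of each list, up to 6 that passed the test or else the 3 with the smallest p for Tau carriers, except that some genes of the lists are not reported here and most cell marker lists are given by their sums. Of the other lists' genes, Ciita, H2-Eb1, H2-T23, H2-Ea, Ifng and Cd8a were named after their values had been seen. The members and lists were chosen with earlier results of these data known.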

Additional observations from a re-analysis of the deposited data

Results flagged for a closer look

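For 20 of 60 sets, each being 1 gene in 1 group of 4 to 6 libraries, the highest or lowest library was farther from the others than Dixon's 95% limit allows. Chance gives about 1 in 20 such sets only if values are normally distributed, which CPM without a log transform need not be. The 10 genes are also not independent, since the same library often stands out for several. Groups of 3 libraries were not examined.

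Tau naive replicate 2 was the highest of 4 for all 10 members and was beyond the limit for 9 of them. It had 56.9 CPM of H2-K1 (others 17.5 to 18), 98.5 CPM of H2-D1 (others 22 to 26.7) and 132 CPM of B2m (others 41.9 to 47.2). It had 7.80 CPM of Tap1, 5.86 CPM of Psmb8 and 2.43 CPM of Psmb9. Of class II it had 41.9 CPM of Cd74 (others 4.57 to 7.09), 9.81 CPM of H2-Aa and 7.94 CPM of H2-Ab1.

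Tau trained replicate 3 was the highest of 4 for all 10 members and was beyond the limit for 8. It had 43.8 CPM of H2-D1 (others 26.4 to 28.5), 80.1 CPM of B2m, 6.86 CPM of Tap1, 4.67 CPM of Psmb8 and 1.90 CPM of Psmb9. Of class II it had 29.5 CPM of Cd74 (others 2.44 to 4.36), 8.27 CPM of H2-Aa and 9.02 CPM of H2-Ab1.

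The other 3 cases were single genes. Psmb8 was at 3.43 CPM in APP naive replicate 1 (others 2.36 to 2.54), H2-Aa at 1.95 CPM in Control trained replicate 4 (others 0.453 to 0.704), and Tap2 was lowest in Control trained replicate 5, at 6.46 CPM (others 8.42 to 8.99).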

How the results depend on the processing

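Of 1430 recomputed member differences 25 turned direction and 3 crossed the threshold, all 3 with DESeq2 for Tau carriers (H2-D1, Tap1 and Cd74, so 3 members in place of 0). No member passed in any other setting, including every omission of a library. APP naive Cd74, -0.01 in the reported fit, was 0.03 with a replicate block, 0.02 with edgeR's older quasi-likelihood method (added after seeing the data), 0.23 with limma-voom, 0.03 with DESeq2 and -0.21 to 0.25 when single libraries were left out. APP trained Psmb9 was -0.07 with a replicate block, -0.07 with limma-voom and -0.23 to 0.25 without single libraries. APP trained Tap1 was -0.01 with limma-voom and -0.04 to 0.17 without single libraries, and APP trained B2m 0 to 0.33. APP naive H2-Ab1 was -0.05 to 0.45. Tau naive differences without single libraries were -0.24 to 0.51 for B2m, -0.13 to 0.92 for H2-D1, -0.03 to 0.66 for Psmb8 and -0.11 to 0.72 for Psmb9, each negative without replicate 2. With the 5 libraries high in Cd74 left out, Tau carrier differences were -0.03 for Cd74, -0.30 for H2-Aa, -0.21 for H2-Ab1 and -0.05 for Psmb8.

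Replicate numbers did not pair the libraries: deviations from group means correlated at a mean of -0.018 for libraries with the same number (106 pairs) and 0.0044 for others (456 pairs). The replicate block called 0 members in every comparison.

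Counts over all genes moved more than those of the members. Tau carriers had 212 genes called, 124 without the filter, 565 with DESeq2, 65 to 391 without single libraries and 18 without the 5. Tau trained had 77, with 230 when only the groups compared were fitted, 1300 with limma-voom, 553 with DESeq2 and 3 to 360 without single libraries. APP/Tau trained had 14, with 25 when only the groups compared were fitted, 25 with limma-voom and 99 with DESeq2. APP/Tau against Tau had 117, with 56 without the filter, 231 when only the groups compared were fitted, 273 with limma-voom, 462 with DESeq2 and 25 to 192 without single libraries. Training in Tau had 0, with 290 when only the groups compared were fitted, 779 with limma-voom, 423 with DESeq2 and up to 192 without single libraries. APP by Tau non-additivity had 13, with 6 under DESeq2's size factors in edgeR, 4 without the filter, 35 with limma-voom, 222 with DESeq2 and 3 to 262 without single libraries. APP carriers had 25, and 78 with DESeq2. APP/Tau naive had 17, and 11 when only the groups compared were fitted. Tau naive had 7, with 2 in that setting, 4 with the replicate block and 3 to 9 without single libraries. Depth limits H2-Aa (14 to 951 counts per library), H2-Ab1 (30 to 788) and Psmb9 (39 to 213) more than the other members.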
